A study of Mus musculus with 3 samples.

Results

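Inflammatory monocytes of mouse dorsal skin were defined here as cells that met a fixed expression rule, and 461 of 24858 cells met it. A cell needed at least 300 genes and at most 20% mitochondrial transcripts. It needed at least 10 unique molecular identifiers (UMIs, each standing for 1 captured transcript) of Lyz2 per 10000, and a UMI of at least 2 of the 5 genes Ly6c2, Ccr2, Plac8, Chil3 and Ms4a6c. It was left out if C1qa, C1qb and C1qc together reached 10 UMIs per 10000, if Col1a1 and Col1a2 reached 20 per 10000, if at least 2 of the neutrophil genes Cxcr2, Retnlg, Il1r2 and Hdc were detected, or if any UMI of Flt3 or Cd3e was present. The cells were thus chosen by the measured levels of these genes, which are given below as a description only.

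The cells came from 3 droplet libraries of single-cell 3' transcripts, all from dorsal skin of C57BL/6 mice aged 7 weeks. The normal library was from skin given glycerin, the IMQ library from skin given imiquimod, and the IMQ+celastrol library from skin given both celastrol and imiquimod. Imiquimod is a Toll-like receptor 7 agonist that produces psoriasis-like inflammation in mouse skin, and celastrol is a plant triterpenoid that the study examined for its effect on that inflammation. Each group was 1 library, and the labels used here do not say how many mice it held. Every interval below is a 95% interval for counting error alone, and treatment and library cannot be told apart.

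Classical monocytes are made in the bone marrow, carry high Ly6C, and leave the marrow and enter inflamed tissue through the chemokine receptor CCR2. In the tissue they release cytokines, chemokines and antimicrobial proteins, respond to interferons, and can mature into macrophages or cells that resemble dendritic cells. In imiquimod-treated skin they arrive together with neutrophils beneath a thickened epidermis.

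The libraries held between 77880943 and 119831835 UMIs over 6777 to 10565 barcodes. The cells that met the rule held 338785 (normal), 2631338 (IMQ) and 447302 (IMQ+celastrol) UMIs. Their median depth was 5595, 7414 and 5458.5 UMIs, so 1 UMI in the summed cells was worth 2.95, 0.380 and 2.24 counts per 1000000 (CPM). Across these cells 0 barcodes were shared between libraries. The median mitochondrial share of these cells was 0.990%, 2.39% and 2.89%, and its part in the differences below was not tested.

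The rule took a different mixture of cells from normal skin than from treated skin. Chil3, which encodes the chitinase-like protein Ym1 of mouse monocytes, measured 156 CPM in the normal cells, 5387 in the IMQ cells and 3246 in the IMQ+celastrol cells. Ly6c2, a gene of the Ly6C antigen, measured 224, 589 and 1022 CPM in the same order. Ccr2 measured 316, 532 and 490 CPM, and Plac8, another gene of Ly6C-high monocytes, measured 614, 1675 and 2886. By CPM all of these rule genes were lowest in the normal library. Ms4a6c, the remaining monocyte gene of the rule, was detected in 82.7%, 86.8% and 77.2% of cells thinned to 3000 UMIs. Ccr2 was detected in 67.3%, 73.5% and 56.1% of them, so by detection neither gene was lowest in the normal library. After every cell was thinned to 3000 UMIs, Chil3 was detected in 72.1% of 287 IMQ cells (75% unthinned) and in 64.9% of 57 IMQ+celastrol cells (63.9% unthinned). In keratinocytes, which should lack it, the thinned shares were 0.151% and 0.160%, at median depths of 38079 and 27546.5 UMIs before thinning. At least 3 of the 5 monocyte genes were detected in 290 of 332 IMQ cells and 60 of 72 IMQ+celastrol cells, but in 20 of 57 normal cells.

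Genes that present antigen and mark dendritic cells went against the label in normal skin. The MHC class II list, which loads extracellular peptides for T cells, had a median of 660 UMIs per 10000 in the normal cells, against 18.0 in the IMQ cells and 18.7 in the IMQ+celastrol cells. It reached 50 per 10000 in 46 of 57 normal cells, in 40 of 332 IMQ cells and in 12 of 72 IMQ+celastrol cells. The dermal dendritic cell lectin Cd209a measured 573, 1.52 and 0 CPM, and Cd207, which encodes the Langerhans cell lectin langerin, measured 239, 0 and 0 CPM. The dendritic cell marker list, 9 genes, summed to 8179, 1890 and 2676 CPM. Most of each sum came from Cst3 (7394, 1884 and 2616 CPM), which monocytes also express. In the normal library the label was therefore not borne out by these genes, and its cells are called normal cells that met the rule. In the other libraries Clec9a and Cd207 were at 0 and Cd209a was at or below 1.52 CPM, so these genes did not go against the label. Those cells are called monocytes here, by the rule.

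**Figure D1:**
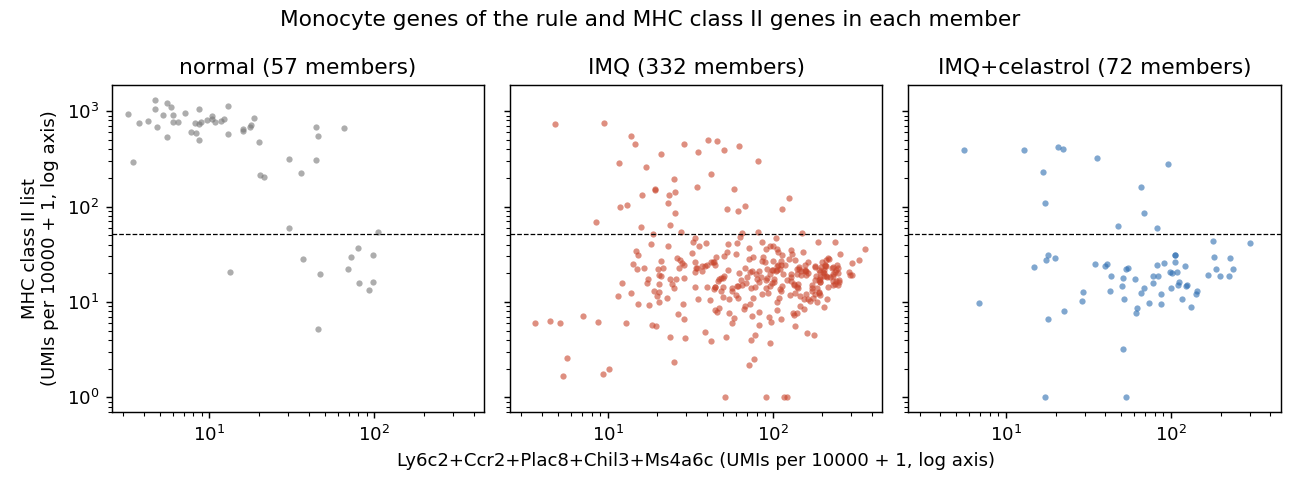
Each point is 1 cell that met the rule, with the summed level of Ly6c2, Ccr2, Plac8, Chil3 and Ms4a6c on the horizontal axis and the MHC class II list on the vertical axis, both as UMIs per 10000 plus 1 on log axes, in 1 panel per library. The dashed line marks 50 UMIs per 10000, above which lie 46 of 57 normal, 40 of 332 IMQ and 12 of 72 IMQ+celastrol cells.

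The criterion of 2 monocyte genes had many normal cells near it, and the neutrophil criterion many IMQ cells. Exactly 2 of the 5 monocyte genes were detected in 37 normal, 42 IMQ and 12 IMQ+celastrol cells that met the rule, and 86, 43 and 10 cells that met every other criterion had exactly 1. Between 10 and 15 UMIs of Lyz2 per 10000 were found in 5, 7 and 4 of the cells inside the rule, and between 5 and 10 in 8, 9 and 2 cells just outside it. Exactly 1 of the 4 neutrophil genes was detected in 23, 145 and 27 of the cells inside the rule, and the neutrophil criterion alone left out 0, 85 and 12 cells.

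Cells that met the rule were far more frequent after imiquimod, and less frequent when celastrol was given with it. The cells that met the rule were 57 of 10428 in normal skin, or 0.547% (exact binomial interval 0.414 to 0.708). They were 332 of 8008 in IMQ skin, or 4.15% (3.72 to 4.61). In IMQ+celastrol skin they were 72 of 6422, or 1.12% (0.878 to 1.41). The share was thus 7.58-fold higher in the IMQ than in the normal library (5.71 to 10.2) and 3.70-fold lower in the IMQ+celastrol than in the IMQ library (2.86 to 4.84). It remained 2.05-fold above normal with celastrol (1.43 to 2.96). No interval of these shares overlapped another. With no second library in any group, none of these ratios has a replicate check.

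The contrast with normal skin depended on the definition, and the contrast between the treated libraries did not. When at least 3 of the 5 monocyte genes were required, the IMQ share was 18.9-fold above normal. When cells with high MHC class II levels were left out, a setting chosen after the data were seen, 13 normal, 299 IMQ and 62 IMQ+celastrol cells remained and the IMQ share was 30.0-fold above normal. The IMQ+celastrol share also stood further above normal in these settings, at 0.934% against 0.192% with 3 genes and 0.965% against 0.125% in cells low in MHC class II. The IMQ+celastrol share was 3.87-fold below the IMQ share in that setting and between 3.57-fold and 4.25-fold below it in all settings run.

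The other myeloid cells of the same libraries gave a comparison. C1q-high macrophages, cells with at least 10 UMIs of the C1q genes and of Lyz2 per 10000, numbered 102, 71 and 22, or 0.978%, 0.887% and 0.343%. Their share was 2.59-fold lower in the IMQ+celastrol than in the IMQ library (1.59 to 4.39). Neutrophils, cells with at least 2 of the 4 neutrophil genes and at least 50 UMIs of S100a8 and S100a9 per 10000, numbered 6, 184 and 75, or 0.0575%, 2.30% and 1.17%. Their share was 1.97-fold lower (1.5 to 2.61). The intervals of the monocyte and neutrophil ratios did not overlap, and those of the monocyte and macrophage ratios did; the differences between these ratios were not tested over replicates. The cells that met the monocyte rule made up 34.5% (normal), 56.6% (IMQ) and 42.6% (IMQ+celastrol) of the 3 myeloid classes together.

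**Figure D2:**
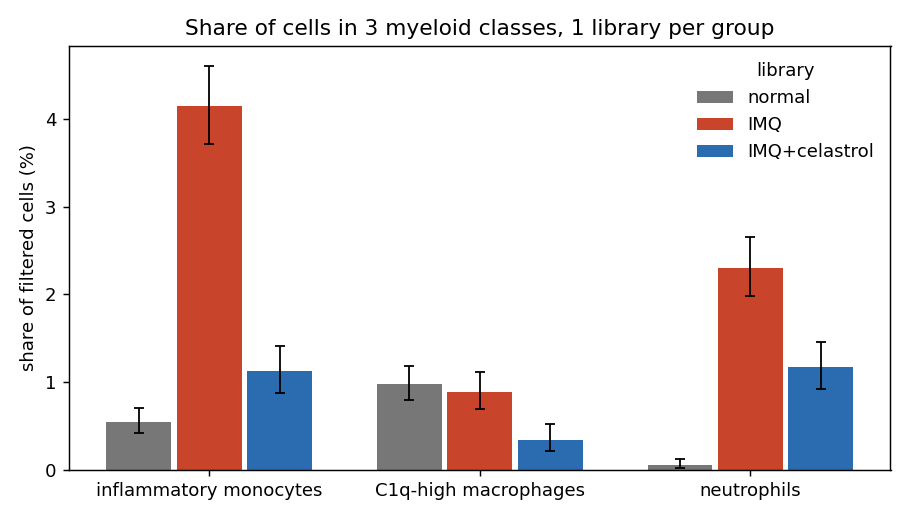
Share of all kept cells (percent, from 0) taken by the cells that met the monocyte rule and, for comparison, by C1q-high macrophages and neutrophils in each library, with exact binomial 95% intervals for counting error as bars. Cells that met the rule were 0.547%, 4.15% and 1.12% of the normal, IMQ and IMQ+celastrol cells. The monocyte label was not borne out in the normal library.

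Monocytes of celastrol-treated skin carried more interferon and chemokine transcripts than those of IMQ skin, and fewer transcripts of a few acute-phase and granule genes. Most classical monocyte genes were less than 2-fold apart. For this comparison UMIs were summed over the monocytes of a library, and a gene was counted as different where its CPM was at least 2-fold apart and averaged at least 50 CPM over both libraries. Of 2534 genes past that filter, 43 were higher (1.7%) and 64 were lower (2.53%) in the IMQ+celastrol monocytes, with a median log2 ratio of -0.05. Single rich cells carried many of these differences: without the 2 richest cells of each gene in each library, 23 of the 43 and 53 of the 64 were still 2-fold apart. The 20 gene lists used here are described by their counts and medians beside those of all genes.

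**Figure D3:**
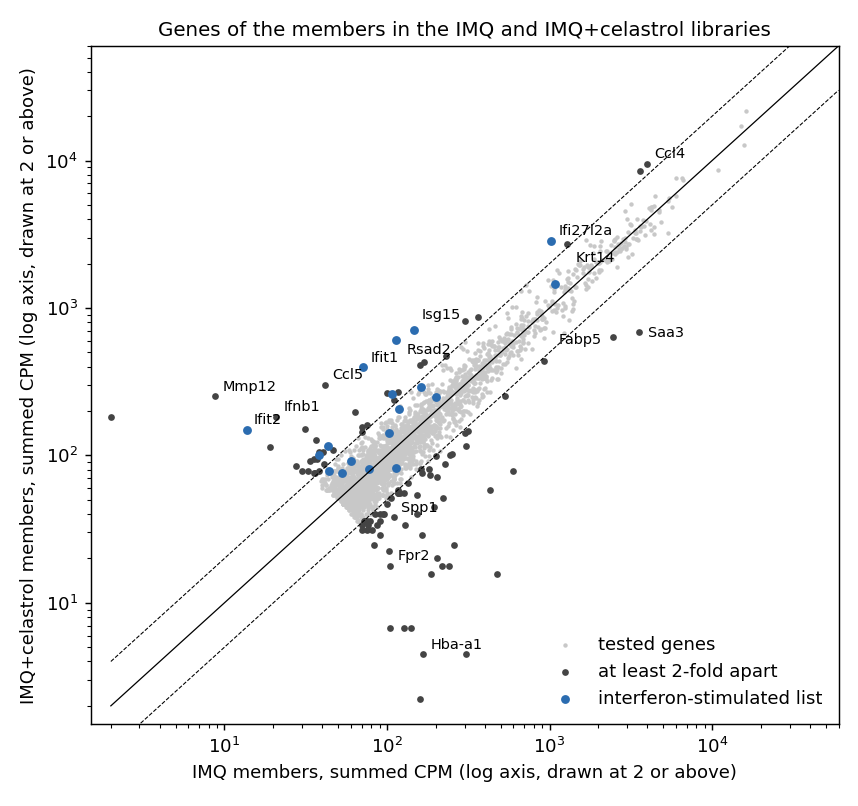
Each point is 1 of the 2534 genes past the filter, with its summed CPM in the IMQ monocytes on the horizontal axis and in the IMQ+celastrol monocytes on the vertical axis, both on log axes with lower values drawn at 2. The solid line marks equal levels and the dashed lines a 2-fold difference, and the blue interferon-stimulated genes lie mostly above the solid line.

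Interferon-stimulated genes stood highest in the IMQ+celastrol monocytes. Of 26 genes on that list, 18 passed the filter, 8 of them were at least 2-fold higher, 0 were lower, and 17 of the 18 ratios lay above 0. The median log2 ratio was 0.84, against -0.05 over all genes tested. Isg15, a ubiquitin-like protein that is attached to other proteins during antiviral responses, measured 198 CPM in the normal cells, 147 in the IMQ monocytes and 709 in the IMQ+celastrol monocytes. It was 4.82-fold higher with celastrol (4.14 to 5.60). Ifit1, which binds viral RNA that lacks a proper cap, measured 2.95, 71.4 and 396 CPM, a 5.54-fold difference between the treated libraries (4.49 to 6.84). Ifit2, of the same family, measured 2.95, 13.7 and 150 CPM and was 10.9-fold higher (7.20 to 16.9). Rsad2, the antiviral enzyme viperin, measured 29.5, 114 and 608 CPM and was 5.35-fold higher (4.52 to 6.33). Each of these 4 genes was thus highest in the IMQ+celastrol library. Isg15 measured less in the IMQ than in the normal cells, by under 2-fold.

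The other members of the list were less far apart. Ifi27l2a, an interferon-inducible mitochondrial protein, measured 1812, 1025 and 2871 CPM. Oasl1 and Oasl2, relatives of the enzymes that sense double-stranded RNA, were 2.43-fold and 2.68-fold higher, and Rtp4 was 2.62-fold higher. Bst2, the tetherin that holds budding virus at the cell surface, measured 245, 161 and 293 CPM with a log2 ratio of 0.86, short of the 2-fold threshold. Slfn5 was the only gene of the 18 below 0, at -0.46. Outside the list, Oas1a, which makes the second messenger that activates RNase L, measured 29.5, 27.4 and 85.0 CPM and was 3.10-fold higher (2.04 to 4.66). With every cell thinned to 3000 UMIs its log2 ratio was 0.83, below the threshold.

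The higher level was spread over many monocytes. The summed list had a median of 35.0 UMIs per 10000 in the normal cells, 32.3 in the IMQ monocytes and 80.8 in the IMQ+celastrol monocytes, and reached 50 per 10000 in 20 of 57, 109 of 332 and 56 of 72 cells. With every cell thinned to 3000 UMIs, Isg15 was detected in 25.4% of 287 IMQ monocytes and 56.1% of 57 IMQ+celastrol monocytes (38.0% and 55.6% unthinned). In keratinocytes the thinned shares were 1.05% and 2.30%, and in fibroblasts 10.2% and 15.8%. At least 4 of the 8 higher genes were detected in 28 of 287 thinned IMQ monocytes, or 9.76% (6.58 to 13.8), and in 21 of 57 IMQ+celastrol monocytes, or 36.8% (24.4 to 50.7). These 8 genes together measured 2187, 1560 and 5211 CPM.

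The same 8 genes were also higher with celastrol in the other cell classes. The ratio of IMQ+celastrol over IMQ was 3.34 in monocytes (3.17 to 3.51), 3.91 in C1q-high macrophages (3.39 to 4.49) and 3.53 in neutrophils (3.23 to 3.85). It was 2.41 in fibroblasts (2.36 to 2.46) and 1.99 in keratinocytes (1.85 to 2.13). The genes were chosen for their difference in monocytes, so the monocyte ratio is a description. The ratios of the other myeloid classes were not below it, and the difference was therefore not particular to monocytes. Per gene the classes differed: Ifit2 measured 13.7 and 150 CPM in monocytes and 2.97 and 3.55 CPM in neutrophils of the IMQ and IMQ+celastrol libraries.

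**Figure D4:**
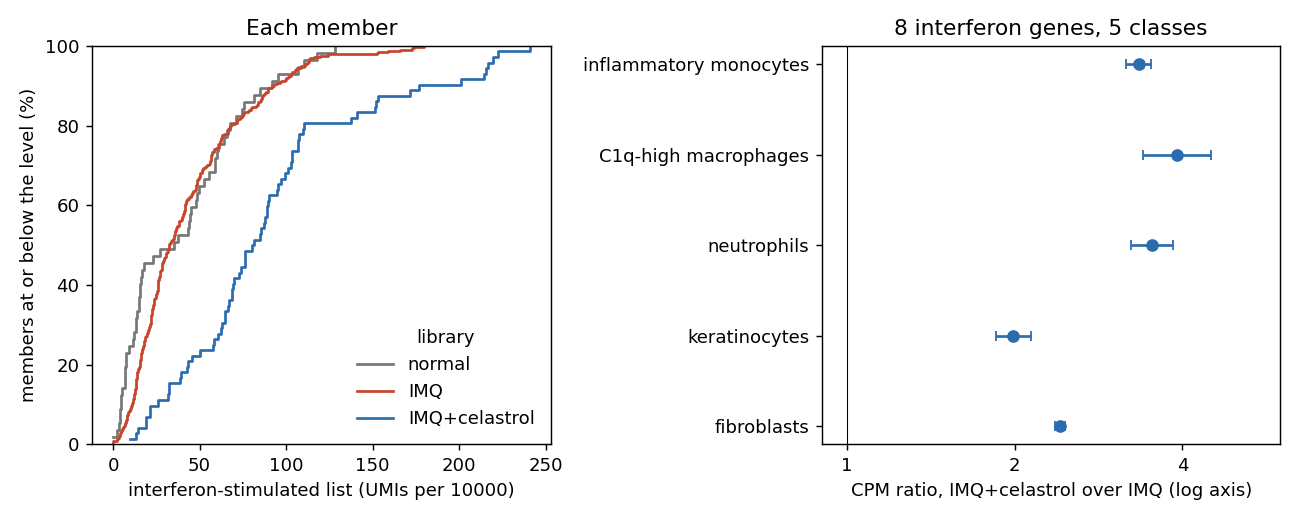
Left, the share of cells that met the rule (percent) at or below each summed level of the interferon-stimulated list (UMIs per 10000), 1 line per library; the IMQ+celastrol line lies to the right, with a median of 80.8 against 32.3 for IMQ. Right, the ratio of summed CPM of the 8 higher genes, IMQ+celastrol over IMQ, on a log axis in 5 cell classes with 95% counting intervals; all 5 lie above 1.

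The promoters of 3 of the higher genes are shown because each holds GAAA, any 2 bases and GAAA again, a form of the sequence that interferon-activated factors bind. The 250 bases before the transcription start are given 5′ to 3′ on the gene's strand from RefSeq (GRCm38.p6), with capitals marking the motif on either strand; the matches in Isg15 overlap. Ifit1 lies on chromosome 19 (chr19:34640639-34640888, plus strand), Rsad2 on chromosome 12 (chr12:26456453-26456702, minus strand) and Isg15 on chromosome 4 (chr4:156200819-156201068, minus strand).
Ifit1: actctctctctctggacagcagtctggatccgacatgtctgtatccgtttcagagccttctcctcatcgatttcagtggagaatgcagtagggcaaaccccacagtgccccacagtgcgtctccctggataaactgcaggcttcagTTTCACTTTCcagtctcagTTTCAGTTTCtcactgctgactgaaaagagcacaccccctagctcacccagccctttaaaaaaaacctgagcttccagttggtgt
Rsad2: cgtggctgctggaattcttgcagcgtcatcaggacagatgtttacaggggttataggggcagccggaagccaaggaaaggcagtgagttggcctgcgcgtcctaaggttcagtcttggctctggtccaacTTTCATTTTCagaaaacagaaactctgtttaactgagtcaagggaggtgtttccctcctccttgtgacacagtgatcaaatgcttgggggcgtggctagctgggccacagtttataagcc
Isg15: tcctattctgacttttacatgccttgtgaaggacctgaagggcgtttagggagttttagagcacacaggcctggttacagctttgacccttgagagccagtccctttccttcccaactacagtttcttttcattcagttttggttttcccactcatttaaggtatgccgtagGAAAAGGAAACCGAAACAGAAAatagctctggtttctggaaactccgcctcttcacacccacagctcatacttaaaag
In Ifit1 the matches lay 104 to 95 and 85 to 76 bases before the start on the opposite strand, and in Rsad2 120 to 111 bases before it on the opposite strand. In Isg15 they lay on the gene's own strand and began 78, 72 and 66 bases before the start. In windows of 300 bases, 250 before and 50 after the start, the motif was found on either strand in 3.44% of 32851 RefSeq promoters. Among genes tested here with a window it was found in 99 of 1929, or 5.13%, and among the higher genes in 7 of 30, or 23.3%: Isg15, Ifit1, Rsad2, Oas1a, Ifih1, Phf11b and Pilrb2, the last 3 named after their values were seen. Among the lower genes it was found in 3 of 42, or 7.14%, which were Saa3, Clec4d and Spp1. On the interferon-stimulated list it was found in 3 of 6 higher genes with a window and in 3 of 6 that were not 2-fold apart. Ifi27l2a and Rtp4 were not matched to a window.

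Interferon beta itself and the chemokines Ccl5 and Ccl4 were also higher. Ifnb1, which encodes the type I interferon that induces the genes above, measured 0 CPM in the normal cells, 20.9 in the IMQ monocytes and 183 in the IMQ+celastrol monocytes, an 8.77-fold difference between the treated libraries (6.16 to 12.6). It was found in 14 of 332 and 15 of 72 monocytes, and 1 cell held 58.2% and 48.8% of its UMIs. After thinning it was detected in 2.09% (0.771 to 4.49) and 14% (6.26 to 25.8) of monocytes (4.22% and 20.8% unthinned), against 0% and 0.0535% of keratinocytes. So few cells carried it in either library, and they were a larger share with celastrol. In C1q-high macrophages Ifnb1 was also higher with celastrol, at 27.5 and 139 CPM, on 15 and 11 UMIs. The ratio there was 5.05 (2.10 to 11.8), so the rise was not particular to monocytes. Neutrophils had 0 UMIs of Ifnb1 in both treated libraries. Ccl5, a chemokine for T cells and monocytes, measured 70.8, 41.4 and 302 CPM, a 7.29-fold difference (5.62 to 9.47) that lay in 18 and 13 cells.

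Of the 9 chemokine genes past the filter, 2 were at least 2-fold higher and 0 lower, with a median log2 ratio of 0.71. Ccl4, a chemokine for monocytes and T cells, measured 1148, 3961 and 9508 CPM and was 2.40-fold higher with celastrol (2.32 to 2.49). Its thinned share was 56.1% of IMQ and 78.9% of IMQ+celastrol monocytes (65.1% and 80.6% unthinned), against 0.602% and 1.07% of keratinocytes. Ccl3, its close relative, measured 70.8, 1116 and 1822 CPM with a log2 ratio of 0.71. Cxcl10, an interferon-induced ligand of CXCR3, measured 260, 720 and 1422 CPM, 1.98-fold higher (1.80 to 2.16) and just under the threshold. In the other classes Cxcl10 had ratios of 0.663 in C1q-high macrophages (0.412 to 1.02), 0.952 in neutrophils (0.729 to 1.23) and 0.556 in fibroblasts (0.536 to 0.578). In keratinocytes it was higher with celastrol, with a ratio of 1.54 (1.49 to 1.59), so the rise was not particular to monocytes. The neutrophil attractant Cxcl2 measured 2046, 6035 and 5734 CPM, and the monocyte attractant Ccl2 measured 770, 517 and 534 CPM. Cxcl2 and Ccl2 were therefore near equal in the treated libraries, and Ccl4 and Ccl5 were higher with celastrol.

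Among the inflammatory cytokines and enzymes, more genes were lower than higher with celastrol. Of 11 past the filter, 1 was higher and 3 were lower, with a median log2 ratio of -0.33. Without the 2 richest cells of each gene the median was -1.10. Il6, a cytokine of the acute-phase response, measured 11.8, 38.0 and 105 CPM and was 2.76-fold higher (1.91 to 3.95), in 33 and 15 cells. Nlrp3, the sensor of an inflammasome that matures IL-1β, measured 67.9, 313 and 145 CPM and was 2.15-fold lower (1.67 to 2.82). Ptgs2, the inducible cyclooxygenase, measured 204, 246 and 101 CPM and was 2.44-fold lower (1.80 to 3.38). Tnfsf9, a costimulatory ligand, measured 301, 251 and 103 CPM and was 2.44-fold lower (1.81 to 3.36). The 3 lower genes and the higher Il6 were each low in the number of UMIs, with 45 to 65 in the IMQ+celastrol monocytes. Il1b itself measured 1260, 1380 and 948 CPM with a log2 ratio of -0.54, and Tnf measured 201, 513 and 601 CPM with a log2 ratio of 0.23. Neither was 2-fold apart between the treated libraries.

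Some acute-phase and granule genes were lower with celastrol. Of 14 alarmin and acute-phase genes past the filter, 0 were higher and 3 were lower, with a median log2 ratio of -0.35. Saa3, an inducible serum amyloid A protein, had 0 UMIs in the normal cells and measured 3565 CPM in the IMQ monocytes and 689 in the IMQ+celastrol monocytes. It was 5.18-fold lower with celastrol (4.62 to 5.82), and its thinned share was 70.4% of IMQ monocytes (64.7 to 75.6) and 36.8% of IMQ+celastrol monocytes (24.4 to 50.7), or 78.3% and 45.8% unthinned. Saa3 was lower with celastrol in every class measured: from 1223 to 12.6 CPM in C1q-high macrophages, from 3168 to 179 in neutrophils, from 442 to 22 in keratinocytes and from 18744 to 1695 in fibroblasts. Its thinned share was 65.1% and 20.5% in fibroblasts and 9.34% and 2.99% in keratinocytes. The part of free RNA from fibroblasts in the monocyte values was not tested.

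Mmp8, the neutrophil collagenase, measured 5.90, 308 and 116 CPM and was 2.65-fold lower (2.0 to 3.58). Clec4d, a C-type lectin receptor for fungal and mycobacterial glycans, measured 38.4, 203 and 71.5 CPM and was 2.84-fold lower (1.99 to 4.20). Fpr2, a formyl peptide receptor that guides cells to bacteria and damaged tissue, measured 11.8, 105 and 17.9 CPM and was 5.84-fold lower (2.92 to 13.7). Fpr2 was found in 157 of 332 IMQ and 7 of 72 IMQ+celastrol monocytes, and after thinning in 26.8% (21.8 to 32.4) and 7.02% (1.95 to 17.0), against 0.0753% and 0% of keratinocytes. It was the only 1 of 14 adhesion and chemoattractant receptors that was 2-fold apart.

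The calgranulins were not 2-fold apart. S100a8 measured 11.8, 2584 and 1896 CPM with a log2 ratio of -0.45, and S100a9 measured 0, 1326 and 829 CPM with a log2 ratio of -0.68. Lcn2, an iron-sequestering antimicrobial protein, measured 0, 532 and 416 CPM with a log2 ratio of -0.35. For S100a8 the thinned share of IMQ monocytes, 59.9% (75.6% unthinned), was below the 94.3% of IMQ keratinocytes. In the IMQ+celastrol library the monocyte share, 56.1% (52.8% unthinned), was above the 45.1% of keratinocytes. The share that was the monocytes' own was not tested. S100a9 was found in 170 of 332 IMQ and 25 of 72 IMQ+celastrol monocytes, but 1 monocyte held 38.3% and 46.6% of its UMIs. Its thinned share was below that of keratinocytes of the same library, at 32.4% against 92.6% (IMQ) and 22.8% against 35.6% (IMQ+celastrol).

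Genes of monocyte identity were close to equal. Of 24 classical monocyte genes outside the rule that passed the filter, 0 were higher and 2 were lower with celastrol, with a median log2 ratio of -0.08. F13a1, coagulation factor XIII of monocytes and macrophages, measured 59.0, 532 and 253 CPM and was 2.10-fold lower (1.74 to 2.57). Fn1, fibronectin, measured 177, 921 and 438 CPM and was 2.10-fold lower (1.82 to 2.44). Vcan, a proteoglycan typical of classical monocytes, measured 47.2, 506 and 362 CPM with a log2 ratio of -0.48. The leukocyte integrin subunit Itgam measured 59.0, 432 and 271 CPM with a log2 ratio of -0.67. Ifitm3, an antiviral membrane protein, was the highest of the list at 0.68. Among 13 growth factor and cytokine receptors past the filter 0 were higher and 1 was lower: Csf3r, the receptor of the granulocyte factor G-CSF, measured 20.7, 73.3 and 35.8 CPM. Of 7 non-classical monocyte genes past the filter 1 was higher and 1 lower. Fabp4, a lipid carrier, measured 617, 186 and 15.6 CPM and was 11.9-fold lower (5.72 to 29.7). Ear2, an eosinophil-type ribonuclease, measured 201, 36.5 and 127 CPM and was 3.49-fold higher (2.47 to 4.90). It shares sequence with other ribonucleases of its family, so its counts are uncertain.

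Genes of LRP1, Toll-like receptors, NF-kB and stress responses showed few differences. LRP1, the endocytic receptor named in the study's title, was measured as Lrp1 at 59.0, 212 and 154 CPM, a log2 ratio of -0.46 between the treated libraries. Of 15 genes of LRP1, its partners and the plasminogen system that passed the filter, 1 was higher and 0 were lower, and that gene, Serpinb2, had 91.2% of its IMQ+celastrol UMIs in 1 cell. Of 5 Toll-like receptor genes 0 were 2-fold apart, with Tlr2 at 79.7, 250 and 188 CPM and Myd88, the adaptor below most of these receptors, at 47.2, 103 and 125. Of 18 NF-kB targets and feedback genes 0 were higher and 1 was lower, with a median log2 ratio of -0.21: Tnip1, a brake on NF-kB, measured 44.3, 80.6 and 31.3 CPM. Nfkbia, the inhibitor induced by NF-kB, measured 1618, 2756 and 2515 CPM with a log2 ratio of -0.13. NRF2 drives defence against oxidative stress, and of its 13 targets past the filter only the cystine carrier Slc7a11 was 2-fold apart, at 29.5, 74.9 and 31.3 CPM, or 2.39-fold lower (1.39 to 4.46). Of 11 heat shock chaperones 1 was higher, Hspb1, with 81.0% of its IMQ+celastrol UMIs in 1 cell, and Hspa1b measured 679, 746 and 1306 CPM with a log2 ratio of 0.81. Of 16 AP-1 and immediate early genes 0 were 2-fold apart.

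**Figure D5:**
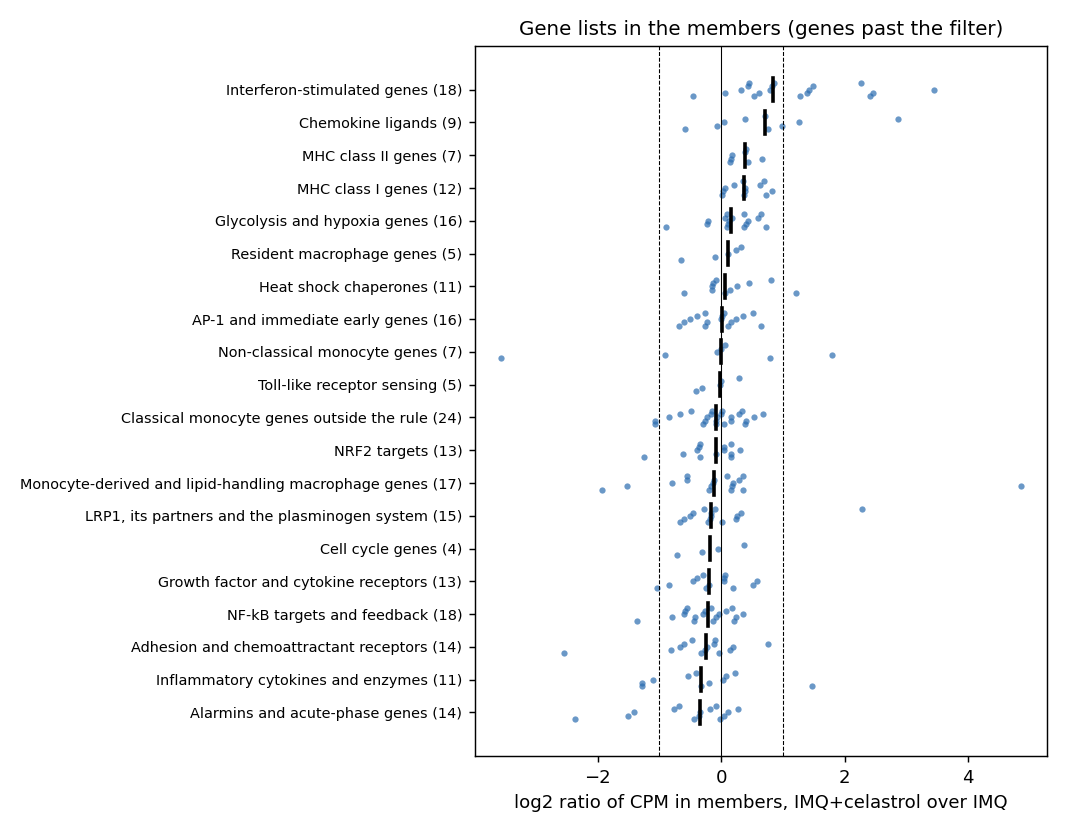
Each point is 1 gene of a list that passed the filter, placed by the log2 ratio of its CPM in IMQ+celastrol over IMQ monocytes, with the number of genes in brackets; thick bars mark list medians and dashed lines a 2-fold difference. The interferon-stimulated list has the highest median, 0.84, and the alarmin list the lowest, -0.35.

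Several of the largest ratios came from 1 or a few cells and from genes of other skin cells. Among the 12 largest higher ratios, Mmp12, a macrophage elastase, measured 8.74 and 253 CPM and lay in 2 IMQ+celastrol cells, with 99.1% of the UMIs in 1 of them. Defb1 and Serpinb2 had 88.2% and 91.2% in 1 cell. Of the 12 largest lower ratios, the haemoglobin genes Hba-a1, Hba-a2, Hbb-bs and Hbb-bt lay in the IMQ library, where 1 cell held 99.1% of Hba-a1 and 98.3% of Hbb-bs. The smooth muscle gene Tagln measured 307 and 4.47 CPM and Myl9 141 and 6.71 CPM, while the matrix protease Mmp3 had 94.8% and the sebaceous or follicular genes Cst6, Scd1 and Krt79 had 90.3%, 93.0% and 75.4% of their IMQ UMIs in 1 cell. Defb6, with 72.2% in 1 cell, completed the group apart from Fabp4. Without the 2 richest cells Fabp4, Tagln, Myl9 and Defb6 were still at least 2-fold lower, and the other 8 were not.

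Transcripts of other skin cells, above all keratinocytes, also differed between the libraries. All 8 keratinocyte markers were detected, and they summed to 342, 3116 and 4511 CPM in the normal, IMQ and IMQ+celastrol cells. Krt14, a basal keratin, was detected after thinning in 33.4% of IMQ and 75.4% of IMQ+celastrol monocytes (56.6% and 88.9% unthinned), and 1 cell held 87.1% of its IMQ+celastrol UMIs. Fibroblast markers summed to 79.7, 463 and 224 CPM, and endothelial and pericyte markers to 88.6, 478 and 73.8 CPM. The neutrophil list summed to 310, 436 and 244 CPM. Cxcr2, Retnlg, Il1r2 and Hdc of that list belong to the rule, so nothing is read from them. Of the others, Csf3r was found in 140, Trem1 in 132, Acod1 in 87, and Mmp9 and Stfa2l1 in 1 each of 332 IMQ monocytes. In the 72 IMQ+celastrol monocytes these numbers were 14, 17, 13, 0 and 0. The part of these transcripts in the gene counts was not tested, but without cells of high keratin level 42 genes were higher and 50 were lower, of which 32 and 39 were among the 43 and 64 called with them. Fabp5, a fatty acid carrier abundant in keratinocytes, measured 248, 2442 and 639 CPM and was 3.82-fold lower, but it was detected after thinning in 43.9% of IMQ and 64.9% of IMQ+celastrol monocytes (68.7% and 77.8% unthinned), so no order is read from it.

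The IMQ cells differed more widely from the normal cells that met the rule. Of 2403 genes past the filter, 340 were higher (14.1%) and 108 lower (4.49%) in the IMQ cells, with a median log2 ratio of 0.17. Scaled by the median ratio, 263 were higher and 143 lower. This comparison shares the IMQ library with the celastrol comparison. Of 14 alarmin and acute-phase genes 13 were higher and 0 lower, with a median log2 ratio of 3.55, and Saa3 was at least 403-fold and S100a9 at least 150-fold higher, taking 3 UMIs in the normal cells as the bound for a count of 0. Wfdc21, a secreted protease inhibitor of neutrophils, measured 2.95 CPM, which is 1 UMI, and 548 CPM. Of 25 classical monocyte genes 15 were higher, Vcan by 10.7-fold (6.58 to 18.8), F13a1 by 9.01-fold (5.81 to 14.8) and the haptoglobin gene Hp by 6.74-fold (5.02 to 9.27). The 1 that was lower, Lyz1, is a near copy of Lyz2 and uncertain. These differences depended on which normal cells were counted: the classical monocyte median log2 ratio of 1.36 was 0.67 with at least 3 monocyte genes and 0.33 in cells low in MHC class II, where the alarmin median was 2.12. Of the 340 higher genes, 147 were also called in cells low in MHC class II.

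Antigen presentation and resident-cell genes lay the other way. Of 7 MHC class II genes 6 were lower, with a median log2 ratio of -4.50. H2-Ab1 measured 12515 and 421 CPM, and Cd74, the invariant chain, 30300 and 1342 CPM. This median also depended on which normal cells were counted. It was -3.45 with at least 3 monocyte genes and -1.04 in cells low in MHC class II, a setting that selects on these genes. Of 8 resident macrophage genes 5 were lower, among them the lectin Mgl2 at 1033 and 1.52 CPM, Cd209d at 452 and 0 and Retnla at 136 and 0, the last in 2 normal cells. Ccr7, the receptor of migrating dendritic cells, measured 121 and 2.66 CPM and Fcrls 115 and 2.66. Among cells low in MHC class II the resident macrophage median was 0.48 rather than -2.64, on 13 normal cells. Lrp1 was 3.60-fold higher in the IMQ cells (2.31 to 5.94). Of the inflammatory cytokines and enzymes past the filter 3 of 8 were higher, Tnf, Osm and Nlrp3, while Il1b was within 1.10-fold (0.990 to 1.21). Of 11 chemokines 5 were higher, with Ccl3 15.8-fold above the normal cells (10.6 to 24.6). Krt6a at 2.95 and 295 CPM, Tagln, Hbb-bs and Stfa3 were also among the 8 largest ratios, and Hist1h2ap, a histone gene, was among the 8 lowest at 434 and 13.7 CPM.

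Against the C1q-high macrophages of the same IMQ library, monocytes were rich in alarmins and poor in resident macrophage genes. Of 2751 genes past the filter, 213 were higher (7.74%) and 208 lower (7.56%) in the monocytes, with a median log2 ratio of -0.05. The C1q genes and, through the rule, the monocyte genes separate these classes by definition, so nothing is read from them. Of 14 alarmin genes 13 were higher: S100a8 measured 2584 CPM in monocytes and 104 in macrophages. Of 25 classical monocyte genes 15 were higher and 2 lower, with Hp at 895 and 87.9 CPM, Vcan at 506 and 65.9 and F10, coagulation factor X, at 317 and 9.16. For these genes the direction was the same in the IMQ+celastrol library, where Hp measured 841 and 25.2, Vcan 362 and 37.8 and F10 302 and 75.7 CPM. It was not the same for every gene of the list. Fn1 was higher in the IMQ monocytes (921 and 231 CPM) and lower in the IMQ+celastrol monocytes (438 and 631 CPM). F13a1 was near equal in the IMQ library (532 and 520 CPM) and lower in the IMQ+celastrol monocytes (253 and 782 CPM). Of 10 resident macrophage genes all 10 were lower, with a median log2 ratio of -3.21. Pf4, platelet factor 4, measured 14.1 and 799 CPM, the phospholipid transfer protein gene Pltp 47.5 and 1364, Ms4a7 14.4 and 549, the haemoglobin scavenger receptor Cd163 2.28 and 103, Fcrls 2.66 and 269 and Ccl12 2.66 and 108. Of 9 cell cycle genes 6 were lower and 0 higher. The 6 largest higher ratios were those of Cst6, Defb6, Scd1, Fabp4, Hba-a1 and Tagln, found in 17, 22, 14, 35, 5 and 27 of the 332 IMQ monocytes. Il1b was 3.15-fold higher in monocytes (2.77 to 3.61).

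Against neutrophils, the summed monocytes were rich in MHC class II and interferon-stimulated genes and poor in granule genes. Of 2535 genes past the filter, 350 were higher (13.8%) and 256 lower (10.1%), with a median log2 ratio of 0.26. Of 7 MHC class II genes all 7 were higher, with Cd74 at 1342 CPM in monocytes and 88.2 in neutrophils. These are sums, and not every monocyte carried the genes: Cd74 was found in 174 and H2-Ab1 in 64 of 332 IMQ monocytes. The MHC class II list reached the threshold of the label check in 40 of the 332, so a high level was not a feature of most of them. Of 11 interferon-stimulated genes 8 were higher and 1 lower, with Ifi27l2a at 1025 and 279 CPM. Of 24 classical monocyte genes 13 were higher, with Fn1 at 921 and 121 CPM and Csf1r, the receptor of the macrophage growth factor, at 281 and 39.1. Ccl4 measured 3961 and 685 CPM. Of 19 alarmin genes 11 were lower: Lcn2 measured 532 and 5488 CPM. S100a8 and S100a9 are on that list and helped define the neutrophils, so nothing is read from its count. The granule genes Ngp (0 and 3742 CPM), Camp (0 and 1638), Mmp9 (0.380 and 408) and Ltf (0.380 and 388) and the stefins Stfa2l1 (0.760 and 355) and Stfa2 (0.760 and 238) were the 6 lowest. Il1b measured 1380 and 2689 CPM and Cxcl2 6035 and 9758, so both classes carried them. In the IMQ+celastrol library Il1b measured 948 CPM in monocytes and 3400 in neutrophils.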

How the data were processed

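Single-cell 3' transcripts of dorsal skin were measured in 3 libraries (normal, IMQ, IMQ+celastrol), 1 per group, so no test between groups was possible and no p-value is given. The files hold UMI counts for each gene and barcode, as deposited by the authors; the file headers name Cell Ranger 4.0.0. The submitters' processing notes list the genome builds mm10 and GRCm38. How cells were called and reads aligned was not given in the sources used here. Each matrix held 31053 genes.

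The cells and the 20 gene lists were chosen with earlier results of these data known, so no list is independent evidence. Counts were summed over the cells that met the rule and scaled to 1000000 per library. Genes averaging at least 50 CPM over both libraries were compared, and at least 2-fold was called different. A count of 0 was placed at 3 UMIs. Intervals are exact 95% (binomial for shares, conditional binomial for ratios) and cover counting error only, not differences between cells, animals or libraries. The comparison of gene counts was also run on simulated counts with known folds, drawn from a pooled profile without spread between cells. That simulation cannot show errors that come from single rich cells. For shares with a UMI, cells were thinned to 3000 UMIs, which left out 5 normal, 45 IMQ and 15 IMQ+celastrol cells. Keratinocytes (at least 50 UMIs of Krt5 and Krt14 per 10000) and fibroblasts (at least 20 of Col1a1 and Col1a2) without Ptprc gave the background. Doublets were kept; an alternative left out the highest Scrublet scores.

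Outside the rule genes and mitochondrial, ribosomal, Gm and Rik symbols, the genes named were the 12 highest and 12 lowest ratios of IMQ+celastrol over IMQ, 8 and 8 of IMQ over normal, and 6 and 6 against each other myeloid class. In every list they were also those with the 4 largest log2 ratios and those at 1000 CPM or more. Other genes named were chosen after their values were seen: the marker genes of the label check, Oasl2, Rtp4, Ccl2, Hp, Krt14, Tmsb10, Ifih1, Phf11b and Pilrb2. A few genes that this rule names are not reported here. Alternatives changed the rule's thresholds, cell filters, doublets, depth, keratin content, weighting, gene filter, scaling and added CPM. Python 3.11.15, numpy 2.4.6, scipy 1.17.1, pandas 2.3.3, scanpy 1.11.5 and matplotlib 3.10.9 were used.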

Additional observations from a re-analysis of the deposited data

How the results depend on the processing

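The lower monocyte share in IMQ+celastrol than in IMQ skin kept its direction in the 8 alternatives run, with log2 ratios from -1.84 to -2.09. The share in IMQ over normal skin had a log2 ratio of 2.92, which became 4.24 when at least 3 monocyte genes were required and 4.90 in cells low in MHC class II. For IMQ+celastrol over IMQ, 43 higher and 64 lower genes became 70 and 110 after thinning to 3000 UMIs, 111 and 244 with a filter of 20 CPM, 23 and 28 with 100 CPM, 1047 and 1196 with no filter, and 21 and 98 without the 2 richest cells of each gene. For IMQ over normal, 340 higher and 108 lower genes became 871 and 237 with 20 CPM, 169 and 66 with 100 CPM, and 2172 and 1443 with no filter. The lower genes numbered 170 with at least 3 monocyte genes, 263 in cells low in MHC class II and 65 without the 2 richest cells. A looser filter tests more genes of few UMIs; for the other settings the cause was not tested. For IMQ+celastrol over IMQ the median log2 ratio of the interferon-stimulated list stayed between 0.77 and 1.07, while for IMQ over normal it ran from -0.30 in cells low in MHC class II to 0.97 without the 2 richest cells, against 0.62. Without the 2 richest cells, the IMQ+celastrol over IMQ medians of MHC class II and of inflammatory cytokines and enzymes were -0.28 and -1.10, against 0.39 and -0.33. For IMQ over normal the resident macrophage median turned from -2.64 to 0.48 in cells low in MHC class II, and the non-classical monocyte median from 1.44 to -0.19 with a filter of 100 CPM. Cells low in MHC class II and the 2 richest cells were settings chosen after the data were seen. Depth limits the normal and IMQ+celastrol cells most, where 1 UMI was 2.95 and 2.24 CPM. No paired analysis was possible because each group was 1 library.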

Other observations

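Antigen presentation genes of class I were slightly higher in the IMQ+celastrol monocytes without any of them reaching 2-fold. Of 12 MHC class I genes past the filter, 12 log2 ratios lay above 0, with a median of 0.38 against -0.05 for all genes tested. H2-Q7, a non-classical class I gene with near copies and therefore uncertain counts, had the largest log2 ratio, 0.82, at 257 CPM in the normal cells, 42.9 in the IMQ monocytes and 76.0 in the IMQ+celastrol monocytes. Psmb8, a subunit of the interferon-inducible immunoproteasome, measured 522, 311 and 512 CPM with a log2 ratio of 0.72. Of 7 MHC class II genes 0 were 2-fold apart, with a median of 0.39, and -0.28 without the 2 richest cells of each gene: H2-DMa, which helps load peptides, measured 1296, 179 and 284 CPM.

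Genes of metabolism, division and macrophage maturation showed few differences between the treated libraries. Of 16 glycolysis and hypoxia genes 0 were 2-fold apart, with a median log2 ratio of 0.15, and the glycolytic enzyme Eno1 measured 153, 235 and 391 CPM. Of 4 cell cycle genes and 5 resident macrophage genes past the filter 0 were 2-fold apart, with medians of -0.19 and 0.11. Of 17 monocyte-derived and lipid-handling macrophage genes 1 was higher and 2 were lower, with a median of -0.11. Among these, Trem2, a lipid-sensing receptor, measured 17.7, 95.8 and 103 CPM, and Spp1, which encodes osteopontin, measured 56.1, 110 and 38.0 CPM with 65.4% of its IMQ UMIs in 1 cell. Tmsb10, an actin-binding peptide chosen after its value was seen, was 2.39-fold higher with celastrol (2.30 to 2.48), at 5171, 3588 and 8569 CPM.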
